A study of Mus musculus with 12 samples.

Results

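The genes described are 10 components of the unfolded protein response, measured in CD11b+ cells sorted from the mouse hippocampus: Hspa5, Hsp90b1, Ddit3, Xbp1, Atf4, Calr, Pdia4, Dnajb9, Herpud1 and Ern1. They were taken by name from the 18193 genes that the array names without ambiguity, and all 10 passed the filter on dim probe sets that left 9120 genes to test. Each gene is represented by its brightest probe set over the 12 arrays, and its other probe sets serve as checks. CD11b is carried by microglia and by other myeloid cells. The mice were females of the inbred strains C57BL/6 and Balb/c, treated at 6.5 weeks of age and killed for analysis at 10.5 weeks. In each strain 3 mice had the forebrain exposed to 10 Gy of X-rays through a circular field 1 cm wide, and 3 were sham treated. The treatment protocol names ketamine and xylazine anaesthesia. All 4 groups were analysed 1 month after treatment. Each array holds 5000 to 10000 sorted cells of 1 mouse, amplified in 2 rounds.

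The unfolded protein response adjusts the folding capacity of the endoplasmic reticulum (ER) to its load of new proteins. Its 3 sensors are IRE1alpha (encoded by Ern1), PERK (Eif2ak3) and ATF6. IRE1alpha splices the Xbp1 transcript, PERK slows translation and favours production of the transcription factor ATF4, and ATF6 is cut in the Golgi to release a transcription factor. Their targets include chaperones, parts of the degradation machinery for misfolded proteins, and CHOP (Ddit3). Many of these activation steps act on proteins or on splicing, which the level of a transcript on an array does not measure.

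The promoters of some targets of the response are known for the ER stress element, through which ATF6 and XBP1 act on chaperone genes. The sequences that match this element are shown because they distinguish the members with an exact match in the searched window from those without one. In the 250 bases before the annotated start, on both strands, the element (CCAAT, any 9 bases, CCACG) was found in 37 of 32851 RefSeq promoters (0.113%), among them those of Hspa5, Hsp90b1 and Calr. Its second form (ATTGG, any 1 base, CCACG) was found in 10 promoters (0.0304%), among them that of Herpud1. Each is written 5′ to 3′ on the strand of the gene, with the element in capitals and 12 bases on either side. Coordinates are those of GRCm38.p6, the build of the RefSeq promoter table.
Hspa5, chr2:34772013-34772055, plus strand: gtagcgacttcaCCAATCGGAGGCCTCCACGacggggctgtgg
Hsp90b1, chr10:86705626-86705668, minus strand: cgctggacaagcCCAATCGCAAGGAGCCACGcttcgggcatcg
Hsp90b1, chr10:86705521-86705563, minus strand, element reading in reverse: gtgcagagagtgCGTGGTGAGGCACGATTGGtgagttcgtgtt
Calr, chr8:84847063-84847105, minus strand, element reading in reverse: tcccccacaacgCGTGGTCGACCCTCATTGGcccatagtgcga
Herpud1, chr8:94386365-94386399, plus strand, second form: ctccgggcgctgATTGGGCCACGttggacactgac
These windows lie upstream of the annotated genes, with the element ending at -47 from the start in Hspa5 and at -42 in Herpud1. The short motif CCACG alone, which every ER stress element contains, was present in 7 members and in 28.3% of all promoters. The UPRE (TGACGTGG) and the CRE (TGACGTCA) were in no member's window, against 0.563% and 1.55% of all promoters. The C/EBP-ATF element (TGATG, any 1 base, AA) was in Herpud1 alone of the members, and in 3.45% of all promoters. A match describes the letters of the window and does not show that a factor binds there. The lack of a match does not show that a gene lacks the element, since only exact letters in this window were searched.

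The values are log2 levels. As a check of the irradiation label, the p53 target Cdkn1a was higher after irradiation by 4.35 in C57BL/6 and 3.12 in Balb/c on the log2 scale (limma adjusted p = 3.9e-06 and 4.6e-05). All 11 microglia markers on the array were above the filter, and the log2 of their summed level lay between 17.25 and 17.43 in every array. Of these markers 2 were called lower after irradiation in the mean of both strains, Trem2 (-0.71) and Siglech (-0.38), and the list median was -0.14. Among the other lists, 8 of 10 astrocyte markers, 6 of 9 monocyte markers, 7 of 10 border-associated macrophage markers and 5 of 11 endothelial and pericyte markers were called higher after irradiation in the mean of both strains, as were S100a8 and S100a9 among the 4 neutrophil markers tested, of 8 on the array. These counts compare with 7.72% of all genes called higher and 8.15% called lower. The summed astrocyte level ran from 13.53 to 14.18 in sham arrays and from 14.29 to 15.21 in irradiated ones. The summed oligodendrocyte level was higher than that in every group, from 15.18 to 16.07 over all arrays. Of its 8 tested markers 0 were called for irradiation in the mean of both strains (limma), against 15.9% of all genes. Of 10 B and plasma cell markers, 7 were below the filter, Cd79a, Ms4a1, Jchain, Mzb1 and Sdc1 among them. Of the 3 tested, 2 were called lower after irradiation in the mean of both strains (list median -0.54), against 8.15% of all genes. In Balb/c against C57BL/6, 1 was called lower in sham and 1 in irradiated mice, against 5.24% and 4.59% of all genes. The 18S ribosomal control signal was 0.74 lower on the log2 scale after irradiation (exact permutation p = 0.0050 within strains, the smallest that 400 permutations allow), and the 3′ minus 5′ signal of the Actb and Gapdh controls was 0.27 higher (exact permutation p = 0.22). Every irradiated array had a lower 18S signal than every sham array (at most 11.77 against at least 11.93). A call lost with this signal as a covariate therefore cannot tell the signal apart from irradiation. The array of Balb/c irradiated replicate 2 had the largest 3′ minus 5′ difference (4.82) and the lowest 18S signal (10.49). The array least like its own group was C57BL/6 irradiated replicate 3 (mean Pearson r over genes 0.966). Where leaving out both of these arrays, which stand apart, ended a call for irradiation in the mean of both strains, this is stated. It covers the members and the named pathway genes at their brightest probe sets. In sorted bulk RNA, fewer cells of a type and less RNA per cell cannot be told apart.

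At 1 month after 10 Gy, Herpud1 was the only one of the 10 members to pass the test at its brightest probe set in any comparison. The other probe set of Ddit3 was also called lower after irradiation. A gene was called at a limma adjusted p under 0.05 over all 9120 genes. In C57BL/6, 0 of the 10 members were called (limma), against 3.67% of all genes (2.21% higher and 1.46% lower). Without adjustment 1 (Atf4) passed 0.05, against 21.3%. In Balb/c the counts were again 0 members called (limma), against 6.15% of all genes (3.26% higher and 2.89% lower), and 1 at an unadjusted p under 0.05, against 22.8%. In the mean of both strains, 1 of 10 was called, lower (Herpud1), against 15.9% of all genes called and 8.15% called lower. At an unadjusted p under 0.05 there were 2 members in that comparison, against 31.7% of all genes. The test of whether the strains responded differently called 0 members (limma), against 0.0768% of all genes (0.0439% higher and 0.0329% lower), with 1 (Atf4) at an unadjusted p under 0.05 against 8.06%.

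At these background shares fewer than 1 member in 10 would be called in either strain, so the counts do not set the members apart from other genes. The sizes of the differences are therefore given too. The median absolute log2 difference of the members was 0.15 in C57BL/6 and 0.15 in Balb/c, against 0.21 and 0.21 over all genes tested. Most members were brighter than the typical tested gene (array medians from 8.5 to 8.56), and the comparison was not matched for level. The part of level in it was not tested, and the same holds for the strain differences and SD ranks given below. The 95% interval lay within 1 log2 unit of 0 for 9 members in C57BL/6 and 10 in Balb/c, against 79.9% and 79.2% of all genes, so changes of more than 2-fold at these probe sets lay outside those intervals. Atf4 in C57BL/6, with an interval from -1.08 to -0.10, was the exception. Of these intervals only that of Atf4 in C57BL/6 and that of Herpud1 in Balb/c (-0.74 to -0.16) excluded 0, and neither difference was called. At 3 arrays per group the other intervals included 0 and smaller changes in either direction. The share of members whose groups did not overlap was close to the background. In C57BL/6 it was 3 of 10, with Hsp90b1 and Calr higher and Atf4 lower, against 26.5% of all genes (11.4% higher, 15.1% lower). In Balb/c it was 3 of 10, with Hsp90b1 higher and Ddit3 and Herpud1 lower, against 29.2% (12.8% higher, 16.3% lower).

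**Figure D1:**
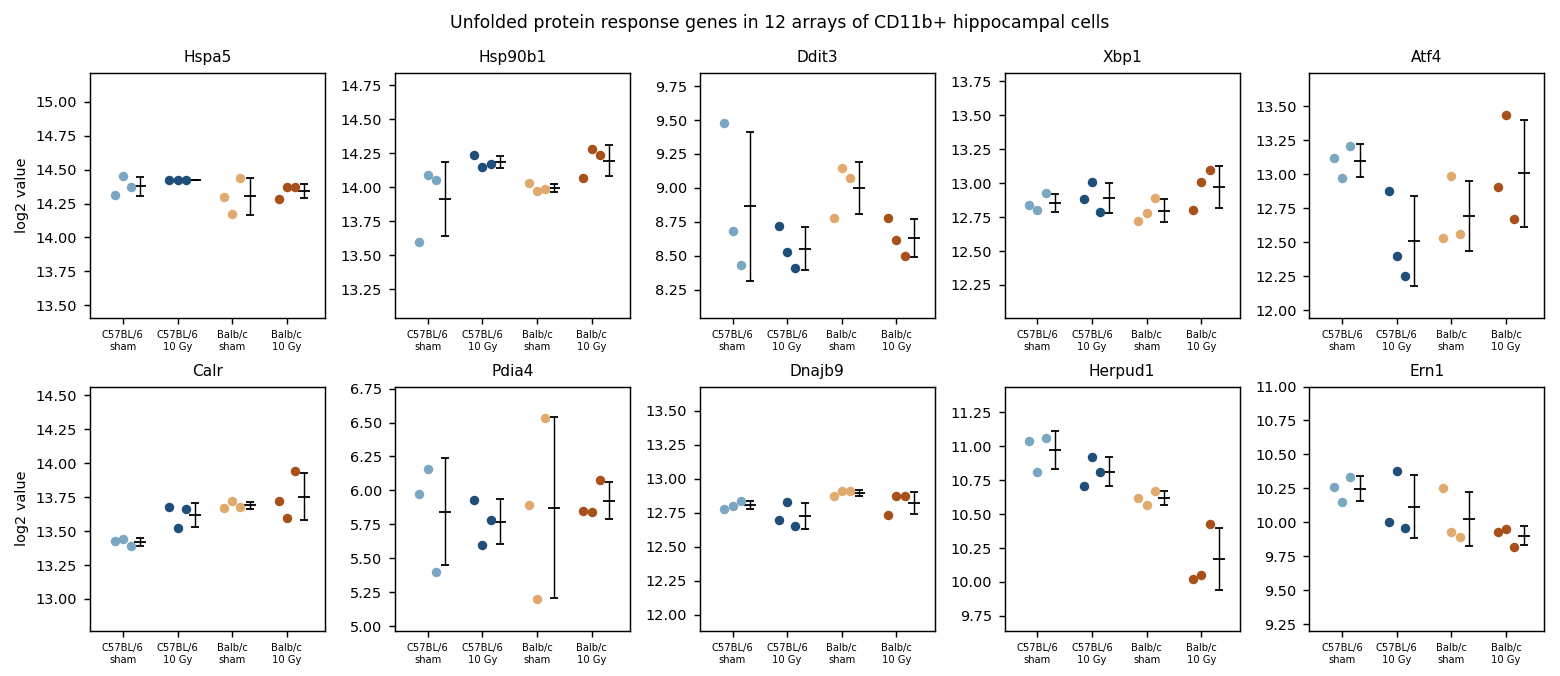
Log2 value of each of the 10 genes on each array (1 point per mouse) by strain and treatment, with the mean and SD (n = 3) beside the points. Each panel spans 1.8 log2 units around its own centre, so distances but not heights can be compared between panels. Herpud1 steps down from C57BL/6 sham (mean 10.97) to Balb/c irradiated (mean 10.17), while Hspa5, Dnajb9 and Xbp1 stay within a narrow band.

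Herpud1 encodes HERP, a membrane protein of the ER that takes part in the degradation of misfolded proteins and is a known target of the unfolded protein response. Its log2 values were 11.04, 10.81 and 11.06 in C57BL/6 sham mice and 10.71, 10.92 and 10.81 in irradiated ones. In Balb/c they were 10.62, 10.57 and 10.67 in sham mice and 10.02, 10.05 and 10.43 in irradiated ones. The C57BL/6 groups overlapped, whereas every Balb/c sham value lay above every Balb/c irradiated value, and every Balb/c value lay below every C57BL/6 value of the same treatment. The order of the group means was C57BL/6 sham (10.97 ± 0.14, SD, n = 3), C57BL/6 irradiated (10.81 ± 0.11), Balb/c sham (10.62 ± 0.05) and Balb/c irradiated (10.17 ± 0.23). Of neighbours in this order, the C57BL/6 groups overlapped and differed by about 1 SD, and the other 2 pairs did not overlap.

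The strain difference was the firmest result for Herpud1. Probe sequences were not checked for strain variants, so here and below a strain difference is one of probe set signal. The part of such variants in it was not tested. After irradiation its level was lower in Balb/c than in C57BL/6, with a log2 difference of -0.65 ± 0.13 (SE; limma adjusted p = 0.010). This is 1.56-fold, with an interval from -0.94 to -0.36. It was the only member called in that comparison, against 8.97% of all genes called (4.38% higher and 4.59% lower). The call held when any of the 12 arrays was left out (-0.78 to -0.57). It was lost with both arrays that stand apart left out (-0.59, limma adjusted p = 0.095), and with the 18S signal (-0.58, adjusted p = 0.072) or the 3′ minus 5′ signal (-0.67, adjusted p = 0.089) as a covariate. Among sham mice the difference was -0.35 ± 0.13 (adjusted p = 0.13), and 0 members were called (limma) against 10.5% of all genes (5.22% higher and 5.24% lower), with 2 at an unadjusted p under 0.05 against 22.8%. Whether the strain difference itself changed with irradiation is the interaction, which was -0.29 ± 0.19 (adjusted p = 0.70).

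Irradiation lowered Herpud1 in the mean of both strains, at the edge of the threshold. The mean difference was -0.31 ± 0.09 (SE; limma adjusted p = 0.049), made up of -0.16 ± 0.13 in C57BL/6 (adjusted p = 0.51) and -0.45 ± 0.13 in Balb/c (adjusted p = 0.068). This call was lost when any of 10 of the 12 arrays was left out, with an adjusted p of up to 0.10 (without C57BL/6 irradiated replicate 1). It held only without C57BL/6 sham replicate 2 or Balb/c irradiated replicate 3. Without the latter, the Balb/c difference by itself passed, at -0.58 (adjusted p = 0.036). With both arrays that stand apart left out the mean difference was -0.28 (adjusted p = 0.15), and with the 18S signal as a covariate it was -0.20 (adjusted p = 0.49). With the replicate number as a block the call was also lost (limma adjusted p = 0.055). The part of the 18S signal and of the astrocyte, monocyte and macrophage transcripts in this difference was not tested further. The other probe set of Herpud1 read 7.33, 7.32 and 7.31 in C57BL/6 sham mice, 7.30, 7.26 and 7.25 in irradiated ones, 6.86, 7.0 and 7.2 in Balb/c sham mice and 6.86, 6.83 and 6.83 in irradiated ones. It also showed the lower level in irradiated Balb/c than irradiated C57BL/6 mice (-0.43, limma adjusted p = 0.029). For irradiation it gave -0.11 (adjusted p = 0.33).

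**Figure D2:**
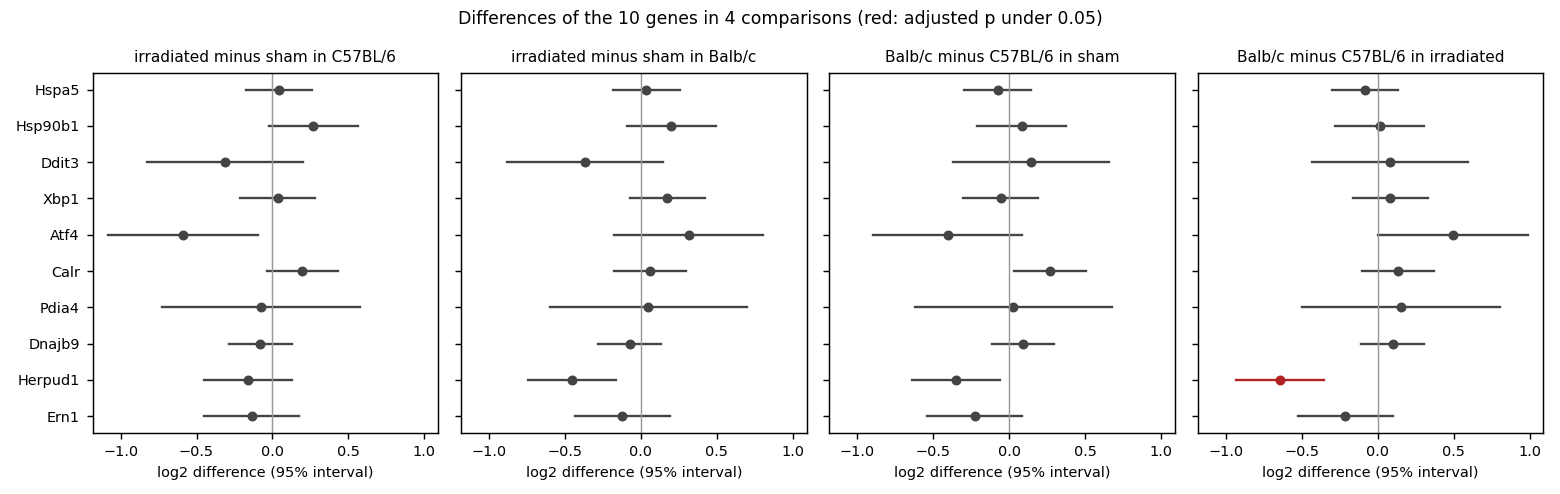
Log2 difference of each of the 10 genes (point) with its 95% interval (line) for irradiation in each strain and for strain within each treatment, from limma with 3 arrays per group. The only interval in red, an adjusted p under 0.05, is that of Herpud1 in Balb/c against C57BL/6 after irradiation (-0.65).

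Ern1 encodes the sensor IRE1alpha, a kinase and endoribonuclease of the ER membrane. Its log2 values were 10.26, 10.15 and 10.33 in C57BL/6 sham mice, 10.00, 10.38 and 9.96 in irradiated ones, 10.25, 9.93 and 9.89 in Balb/c sham mice and 9.93, 9.95 and 9.82 in irradiated ones. Sham and irradiated values overlapped in both strains, and the irradiated Balb/c values lay below the irradiated C57BL/6 values by a narrow margin. The differences with irradiation were -0.14 ± 0.14 in C57BL/6 and -0.12 ± 0.14 in Balb/c (SE; limma adjusted p = 0.61 and 0.66). The other 4 probe sets of Ern1 were above 5 on no array.

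Xbp1 encodes the transcription factor whose transcript IRE1alpha splices. Its values were 12.84, 12.80 and 12.93 in C57BL/6 sham mice, 12.88, 13.01 and 12.79 in irradiated ones, 12.72, 12.78 and 12.89 in Balb/c sham mice and 12.80, 13.01 and 13.10 in irradiated ones. At this brightest probe set all 4 groups overlapped one another. Its largest difference was that of irradiation in Balb/c, 0.17 ± 0.11 with an interval from -0.07 to 0.42 (limma adjusted p = 0.40). The spliced form was not analysed here. For Balb/c against C57BL/6 after irradiation, the 3 other probe sets of Xbp1 gave -0.53, -0.09 and -0.0050 (limma adjusted p = 0.057, 0.87 and 0.99). The brightest gave 0.08. With irradiation the same 3 other probe sets gave 0.35, -0.07 and 0.07 in C57BL/6 (limma adjusted p = 0.22, 0.91 and 0.83). In Balb/c they gave 0.04, 0.32 and 0.05 (adjusted p = 0.92, 0.51 and 0.88). The first of them had no overlap between sham and irradiated C57BL/6 mice, or between strains in either treatment.

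Atf4, the transcription factor downstream of PERK and of the other eIF2alpha kinases, had the largest difference of the 10 genes with irradiation in C57BL/6, which did not pass the test. Its values were 13.12, 12.97 and 13.21 in C57BL/6 sham mice and 12.88, 12.40 and 12.25 in irradiated ones, with no overlap. In Balb/c they were 12.53, 12.99 and 12.56 in sham mice and 12.91, 13.44 and 12.67 in irradiated ones, with overlap and a higher mean after irradiation. The difference was -0.59 ± 0.22 in C57BL/6 (limma adjusted p = 0.16) and 0.31 ± 0.22 in Balb/c (adjusted p = 0.44). The interaction was 0.90 ± 0.32, with an adjusted p of 0.56. The other usable probe set of Atf4 did not show the opposite directions: it gave -0.52 in C57BL/6 and -0.45 in Balb/c (adjusted p = 0.23 and 0.29), an interaction of 0.06, and -0.49 in the mean of both strains (adjusted p = 0.074). In C57BL/6 it read 11.64, 10.98 and 11.16 in sham mice and 11.02, 10.72 and 10.49 in irradiated ones. In Balb/c the sham values ran up to 11.12 from 10.89, and the irradiated values were 10.95, 10.58 and 10.12. The brightest probe set is of the x_at type, which by the array's naming can hybridise with other transcripts.

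Ddit3 encodes CHOP, the transcription factor linked to cell death in prolonged ER stress. Its values were 9.48, 8.68 and 8.43 in C57BL/6 sham mice and 8.72, 8.53 and 8.41 in irradiated ones, so that a single sham array set the higher mean of that group. In Balb/c they were 8.78, 9.15 and 9.07 in sham mice and 8.78, 8.62 and 8.5 in irradiated ones, and the lowest sham value was only just above the highest irradiated one. The differences were -0.31 ± 0.23 and -0.37 ± 0.23 (SE; limma adjusted p = 0.46 and 0.39), and -0.34 ± 0.16 in the mean of both strains (adjusted p = 0.19). The other probe set of Ddit3 gave larger differences of the same sign. It read 7.61, 7.42 and 6.76 in C57BL/6 sham mice, 6.50, 6.55 and 5.59 in irradiated ones, 7.06, 7.45 and 7.26 in Balb/c sham mice and 6.90, 6.37 and 5.93 in irradiated ones, with no overlap in either strain. Its mean difference of -0.95 passed the test (limma adjusted p = 0.020, over all probe sets), as did that of both probe sets averaged (-0.65, adjusted p = 0.031). The direction was thus lower on both probe sets, and the call depended on which was used.

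**Figure D3:**
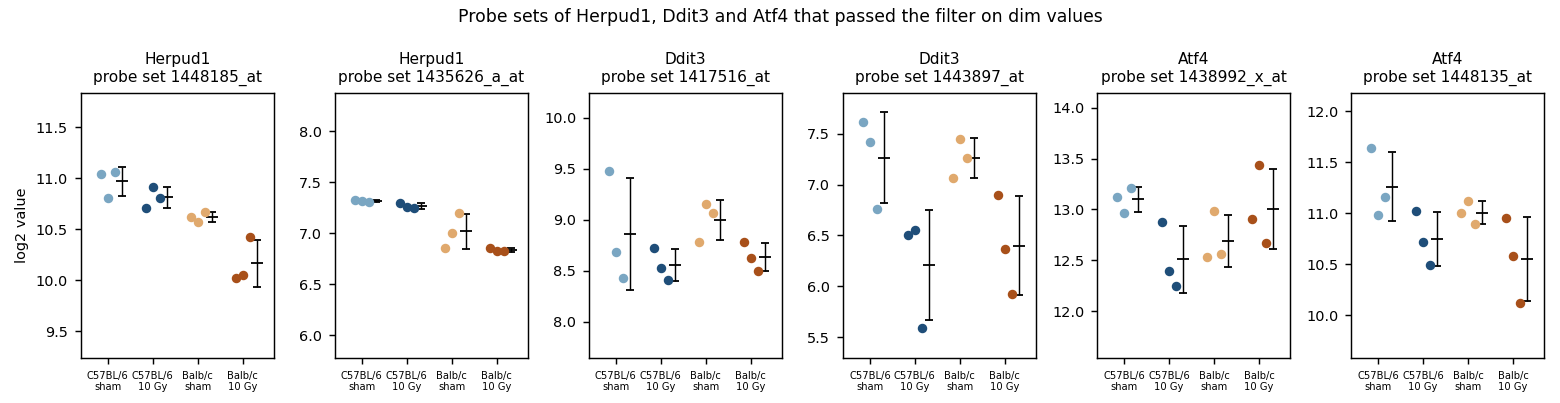
Log2 values by array of the probe sets of Herpud1, Ddit3 and Atf4 that passed the filter, the brightest of each gene first, with mean and SD (n = 3) per group. Each panel spans 2.6 log2 units. Both Herpud1 probe sets are lower in Balb/c, both Ddit3 probe sets are lower after irradiation to different extents, and the Atf4 probe sets differ in Balb/c (0.31 against -0.45).

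Hspa5 encodes BiP, the main Hsp70 chaperone of the ER, whose transcript is widely used as a readout of the response. At its brightest probe set it varied less between mice of a group than nearly all genes: its pooled SD was 0.08 on the log2 scale, and only 2.07% of the genes tested had a smaller one. Its values were 14.31, 14.45 and 14.37 in C57BL/6 sham mice, 14.42 in all 3 irradiated ones, 14.30, 14.17 and 14.44 in Balb/c sham mice, and 14.28, 14.37 and 14.37 in irradiated ones. The 3 identical values arose because arrays were brought to the same distribution, so that a value is set by rank: 150 probe sets were brighter on each of these arrays, against 145 to 209 on the others. The difference with irradiation was 0.04 ± 0.10 in each strain (SE; limma adjusted p = 0.83 and 0.87), with intervals from -0.18 to 0.26 in both. In the mean of both strains the interval was -0.11 to 0.19, that is within 1.14-fold, at this probe set. The next brightest had an SD of 0.29 in C57BL/6 sham mice. It gave 0.05 and -0.02 with irradiation, and -0.28 between strains after irradiation (limma adjusted p = 0.89, 0.96 and 0.32). The dimmest tracked the brightest weakly (Pearson r = 0.10). It gave -0.27 in C57BL/6 and 0.25 in Balb/c with irradiation (limma adjusted p = 0.40 and 0.46).

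Hsp90b1 encodes GRP94, the Hsp90 chaperone of the ER. It was the only member whose irradiated values lay above all sham values in both strains, against 4.7% of all genes (5.66% lay below in both, and 10.4% did either), and it did not pass the test. Its values were 13.60, 14.09 and 14.05 in C57BL/6 sham mice, 14.24, 14.15 and 14.17 in irradiated ones, 14.03, 13.97 and 13.99 in Balb/c sham mice and 14.07, 14.28 and 14.24 in irradiated ones. The gap between the groups was small in both strains, and 1 low sham array widened the difference in C57BL/6. The differences were 0.27 ± 0.13 and 0.20 ± 0.13 (limma adjusted p = 0.27 and 0.41), and 0.23 ± 0.09 in the mean of both strains (adjusted p = 0.12). Its other probe set gave -0.02 and -0.14, so the direction did not hold between probe sets.

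Calr encodes calreticulin, the chaperone that binds glycoproteins in the ER lumen. Its values were 13.43, 13.44 and 13.39 in C57BL/6 sham mice, 13.68, 13.52 and 13.66 in irradiated ones, 13.67, 13.72 and 13.68 in Balb/c sham mice and 13.72, 13.60 and 13.94 in irradiated ones. C57BL/6 sham mice thus lay below the other 3 groups, which overlapped one another. Neither of its differences passed the test: 0.20 ± 0.11 with irradiation in C57BL/6 (limma adjusted p = 0.31) and 0.27 ± 0.11 between Balb/c and C57BL/6 sham mice (adjusted p = 0.16). The 3 probe sets of Calr tracked each other closely across arrays (Pearson r of 0.94 and 0.95 with the brightest, 12 arrays).

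Dnajb9 encodes ERdj4, a co-chaperone of BiP and a target of XBP1. It had the narrowest spread of the members, a pooled SD of 0.06 that only 0.90% of genes were below. Its values ran from 12.65 to 12.91 over all 12 arrays. The differences with irradiation were -0.08 ± 0.09 in C57BL/6 and -0.07 ± 0.09 in Balb/c (SE; limma adjusted p = 0.65 and 0.70). Pdia4 encodes ERp72, a disulfide isomerase. Its values lay close to the filter, from 5.2 to 6.53, and its pooled SD of 0.40 was larger than that of 85.2% of genes. Its intervals, from -0.73 to 0.57 in C57BL/6 and from -0.60 to 0.70 in Balb/c, were the widest of the members.

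Between strains the members' counts were again near the background. Among sham mice, 3 members had non-overlapping groups (Calr and Dnajb9 higher in Balb/c, Herpud1 lower), against 28.5% of all genes (16.3% higher, 12.3% lower). After irradiation, 3 did, all lower in Balb/c (Hspa5, Herpud1 and Ern1), against 27.4% of all genes (15.1% higher, 12.3% lower). The median absolute strain difference of the members was 0.12 in sham and 0.12 in irradiated mice, against 0.20 and 0.21 over all genes.

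Members did not vary together from mouse to mouse in a way that passed a test. Of 45 pairs, correlated over the 12 arrays after subtracting group means, 24 had a Pearson r above 0, and 0 had an adjusted p under 0.05 in exact permutations within groups. Xbp1 and Dnajb9, a factor and its known target, had the highest correlation (r = 0.90, rho = 0.88). The exact permutation p was 0.0046 for r, and its Benjamini-Hochberg adjusted value was 0.10. Without the 2 arrays farthest from the median of Xbp1, r was 0.87. The smallest exact permutation p was that of a negative pair, Calr and Ern1 (r = -0.57, p = 0.0039, adjusted 0.10). The lowest r was that of Hsp90b1 and Ddit3 (-0.83, exact permutation p = 0.090, adjusted 0.81). As a description, the genes most like Herpud1 in these deviations were Psenen (r = 0.96), Zkscan4 (0.93), Zmpste24 (0.91), Crebrf (0.90) and Ndufa10 (0.89), over 12 arrays. By the log2 values themselves, which include the group differences, they were Mrpl24 (0.96), Rab6b (0.94), Il16 (0.94), F11r (0.93) and Hk2 (0.93). For Hspa5 the most alike in deviations were Bag3 (0.97), Gpatch4 (0.93), Lrig1 (0.93), Akap12 (0.90) and Sepsecs (0.90).

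The wider pathway was read from lists that share some members. Of the sensors and their activation machinery, 11 of 12 genes were tested. In the mean of both strains 2 fell with irradiation and 0 rose (limma), against 8.15% and 7.72% of all genes. Creb3l2, an ER-bound transcription factor related to ATF6, fell by 0.54 ± 0.09 on the log2 scale (SE; limma adjusted p = 0.0029), with no overlap in either strain. Mbtps1, the Golgi protease that cuts ATF6, fell by 0.34 ± 0.08 (adjusted p = 0.019). Both calls held when any array was left out, but not with the 18S signal as a covariate (Creb3l2 -0.51, adjusted p = 0.11, and Mbtps1 -0.35, adjusted p = 0.20), where the differences were about as large, and that of Mbtps1 not without the arrays that stand apart (adjusted p = 0.075) or with the 3′ minus 5′ covariate (0.061). The sensors Atf6 (-0.18 ± 0.08, adjusted p = 0.15) and Eif2ak3 (-0.04 ± 0.13, adjusted p = 0.86) were not called.

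Of 27 chaperones and folding enzymes, all tested, 2 rose and 1 fell in the mean of both strains, near the 7.72% and 8.15% of all genes, and the median difference was 0.11 against -0.05 over all genes. Ero1a, the oxidase that drives disulfide formation, rose by 0.62 ± 0.14 (SE; limma adjusted p = 0.017). Its other probe set gave 0.28 (adjusted p = 0.40). Pdia5, a disulfide isomerase, fell by 0.61 ± 0.15 (adjusted p = 0.024), a call lost without C57BL/6 sham replicate 1 (0.052), C57BL/6 irradiated replicate 1 (0.054) or Balb/c sham replicate 2 (0.059). Dnajc10, an ER reductase, rose by 0.30 ± 0.09 (adjusted p = 0.046), a call kept only without C57BL/6 sham replicate 2 or C57BL/6 irradiated replicate 2 and lost without any of the other 10 arrays (adjusted p up to 0.10). With the replicate number as a block Dnajc10 was not called (limma adjusted p = 0.067). With no filter Ero1a (0.054), Pdia5 (0.072) and Dnajc10 (0.067) were not called. With the 3′ minus 5′ covariate Pdia5 (0.052) and Dnajc10 (0.13) were not. Without both arrays that stand apart, Pdia5 (0.063) and Dnajc10 (0.15) were not called, and with the 18S covariate none of the 3 was called. With that covariate the differences were 0.81 for Ero1a (adjusted p = 0.10), -0.62 for Pdia5 (0.23) and 0.23 for Dnajc10 (0.41). Core chaperones were not called, among them Hyou1 (-0.0035 ± 0.088), Creld2 (0.23 ± 0.10), Dnajc3 (0.15 ± 0.09) and Manf (0.11 ± 0.13). Between strains, Dnajc10 was higher in Balb/c (1.05 ± 0.13 in sham mice, adjusted p = 0.00031; 0.87 after irradiation, adjusted p = 0.0013), and its second probe set gave 0.81 (adjusted p = 0.056) and 0.58 (adjusted p = 0.18). P4hb, the abundant disulfide isomerase, was lower in Balb/c (-0.53 in sham mice, adjusted p = 0.010; -0.76 after irradiation, adjusted p = 0.0013).

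Of 22 tested genes of ER-associated degradation, 2 fell (Herpud1 and Ube2j1) and 0 rose in the mean of both strains, near the 8.15% of all genes called lower. Ube2j1, a ubiquitin-conjugating enzyme of the ER membrane, fell by 0.56 ± 0.10 (SE; limma adjusted p = 0.0048), and the call held when any array was left out. With the 18S signal as a covariate its difference was -0.46 (adjusted p = 0.16), and its other probe set gave -0.47 (adjusted p = 0.11). The ligase Syvn1 (-0.12 ± 0.09) and its partner Sel1l (0.16 ± 0.10) were not called. Among sham mice, Edem2 was higher in Balb/c by 1.18 ± 0.21 (adjusted p = 0.0046), as was Erlec1 by 0.72 ± 0.19 (adjusted p = 0.033). The call of Erlec1 was lost without C57BL/6 sham replicate 1 (0.092), C57BL/6 sham replicate 3 (0.095), Balb/c sham replicate 1 (0.070) or Balb/c sham replicate 3 (0.12), and with no filter (0.093), and its second probe set gave 0.25 (adjusted p = 0.40).

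In the arm of PERK and ATF4, of 28 genes on the array 20 were tested. In the mean of both strains 1 rose and 5 fell, against 7.72% and 8.15% of all genes. Psat1, an enzyme of serine synthesis and a known ATF4 target, rose by 0.99 ± 0.13 (SE; limma adjusted p = 0.0010), on both of its probe sets and without overlap in either strain. The genes that fell were Aars (-0.59 ± 0.09, adjusted p = 0.0023), Cebpg (-0.52 ± 0.11, adjusted p = 0.0097), Aldh18a1 (-0.50 ± 0.11, adjusted p = 0.014), Atf3 (-1.22 ± 0.27, adjusted p = 0.014) and Ppp1r15a (-0.87 ± 0.22, adjusted p = 0.023). Aars is a tRNA synthetase, Cebpg a partner of ATF4, Aldh18a1 an enzyme of proline synthesis, Atf3 a stress-induced transcription factor and Ppp1r15a the phosphatase subunit GADD34. Ppp1r15a lay outside the rule for naming genes and was named after its values were seen. Its call was lost without C57BL/6 irradiated replicate 3 (0.058), Balb/c sham replicate 1 (0.050) or Balb/c irradiated replicate 3 (0.055), and the other 5 calls held when any array was left out. None of the 6 was called with the 18S signal as a covariate (adjusted p from 0.069 for Psat1 to 0.36 for Aldh18a1). The differences with it were 0.91 for Psat1, -0.42 for Aars, -0.42 for Cebpg, -1.44 for Atf3, -0.86 for Ppp1r15a and -0.31 for Aldh18a1. Without both arrays that stand apart Aldh18a1 (0.062), Atf3 (0.055) and Ppp1r15a (0.10) were not called. With no filter Atf3 (limma adjusted p = 0.059) and Ppp1r15a (0.080) were not called. With the 3′ minus 5′ covariate Aldh18a1 (0.054) and Ppp1r15a (0.081) were not. Over the same arrays 10 of 23 immediate early and stress genes, a list that shares no gene with this one, fell as well, against 8.15% of all genes, with a median difference of -0.44. The part of these, and of the astrocyte transcripts, in the differences was not tested.

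Between sham mice 3 of the 20 were called by strain (1 higher, 2 lower in Balb/c), against 10.5% of all genes. Phgdh, the first enzyme of serine synthesis, was lower in Balb/c sham mice, with a log2 difference of -3.53 ± 0.20 (SE; limma adjusted p = 1.0e-06) at its brightest probe set. Its other 3 probe sets were also lower, but their Balb/c sham means lay below the filter of 5, so no size is given for them. The transporter Slc7a5 was higher by 3.0 ± 0.30 (adjusted p = 8.8e-05), and Psat1 was lower (-1.03 ± 0.19, adjusted p = 0.0045).

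**Figure D4:**
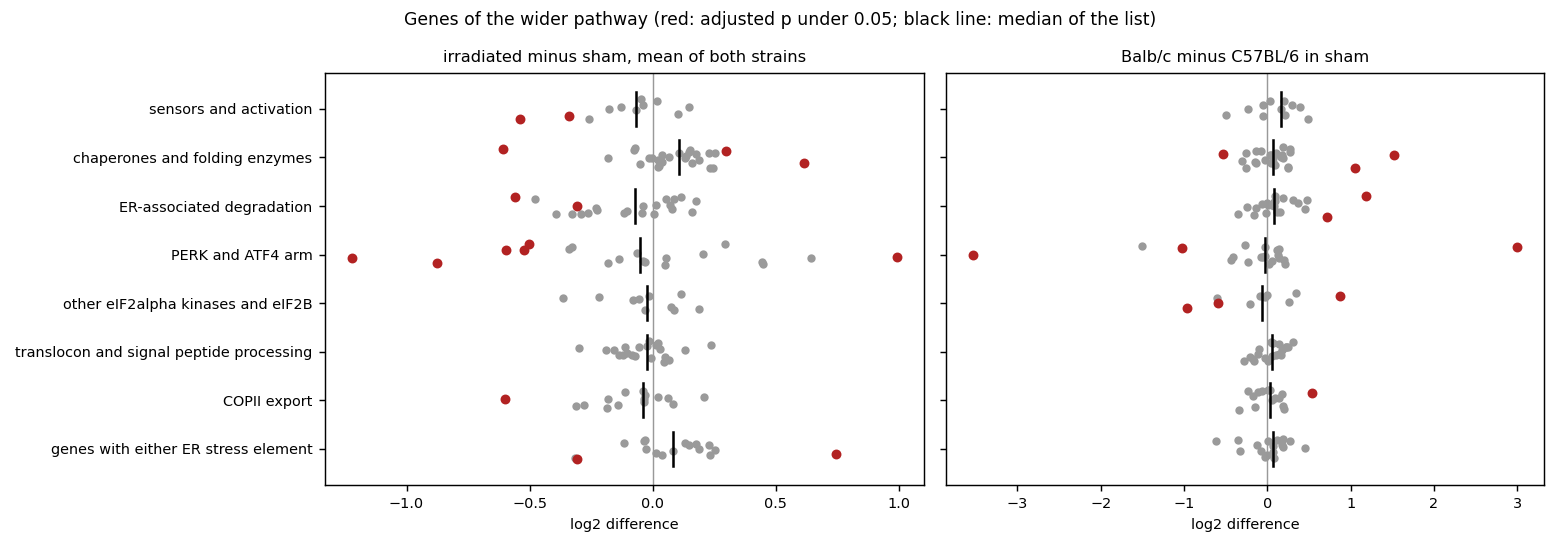
Log2 differences of all tested genes of each list (points) for irradiation in the mean of both strains and for strain among sham mice, with the list median as a black line and called genes (limma adjusted p under 0.05) in red. Points are spread vertically at random. With irradiation most genes lie within 0.5 of 0, and the called genes of the PERK and ATF4 list range from -1.22 to 0.99.

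Of 21 genes of the translocon and signal peptide processing, 0 were called in any of the 6 comparisons (limma). Of 15 tested COPII genes, Sec31a fell by 0.60 ± 0.17 in the mean of both strains (limma adjusted p = 0.038), a call kept only without C57BL/6 sham replicate 3, C57BL/6 irradiated replicate 2 or Balb/c irradiated replicate 1 and lost without any of the other 9 arrays. Without both arrays that stand apart it gave -0.47 (adjusted p = 0.13), with the 3′ minus 5′ covariate -0.37 (0.11) and with the 18S covariate -0.18 (0.71). The call of Sec31a was also lost with no filter (0.11) or array weights (0.052). Kdelr1, a receptor that returns proteins to the ER, was higher in Balb/c sham mice (0.54 ± 0.13, adjusted p = 0.022), a call lost without C57BL/6 sham replicate 1 (0.068), C57BL/6 sham replicate 2 (0.063) or Balb/c sham replicate 2 (0.089). The list of the other eIF2alpha kinases and of eIF2B also holds Eif2a, which is neither. Of its 10 tested genes, 0 were called for irradiation (limma) and 3 between strains in sham mice, Eif2a among them, against 10.5% of all genes. Eif2ak2, the kinase PKR, was lower in Balb/c (-0.97 ± 0.17, limma adjusted p = 0.0036), and the call held when any array was left out. Eif2ak1, the kinase HRI, was higher (0.87 ± 0.24, adjusted p = 0.042), a call kept only without C57BL/6 irradiated replicate 3, Balb/c sham replicate 3 or Balb/c irradiated replicates 1 or 2 (adjusted p up to 0.14 without any of the others). Its C57BL/6 sham mean of 4.99 lay below the filter of 5, so the size is uncertain. The call was also lost with no filter (0.14), trend and robust variance (0.060), the compared groups alone (0.087) or the replicate block (0.065). Eif2a, a translation initiation factor, was lower in sham mice (-0.59 ± 0.15, adjusted p = 0.027) and after irradiation (-0.53 ± 0.15, adjusted p = 0.047). Its sham call was lost without C57BL/6 sham replicate 2 (0.071), C57BL/6 sham replicate 3 (0.085), Balb/c sham replicate 1 (0.051) or Balb/c sham replicate 2 (0.098), and the other was kept only without Balb/c sham replicate 2. After irradiation its second probe set gave -0.16 (adjusted p = 0.72). With no filter neither call of Eif2a held (adjusted p = 0.059 in sham mice and 0.093 after irradiation). The interaction called 0 genes in each of these lists (limma).

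The genes that share the promoter element with Hspa5, Hsp90b1, Calr and Herpud1 were counted too. Of 26 such genes on the array, 17 were tested, among them Canx, Creld2, Dnajc3, Pdia6 and Syvn1. In the mean of both strains 1 rose (Lgalsl, 0.75 ± 0.18, limma adjusted p = 0.021) and 1 fell (Herpud1), against 7.72% and 8.15% of all genes, and the median difference was 0.08 against -0.05 over all genes. The call of Lgalsl was lost without C57BL/6 irradiated replicate 3 (0.051), without both arrays that stand apart (0.090), with no filter (0.069), and with the 3′ minus 5′ (0.069) or 18S covariate (0.58, adjusted p = 0.32). Of the 4 members with a match to the element, the difference with irradiation was -0.31 in Herpud1, 0.04 in Hspa5, 0.23 in Hsp90b1 and 0.13 in Calr, and differences between these genes were not tested.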

How the data were processed

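The deposited values are log2 intensities of 45101 probe sets on a mouse Affymetrix array. The submitters' processing notes name GCRMA, without a version. The 12 arrays share 1 distribution, their sorted values being equal within 0.001, so a value reflects rank within its array. The 10 genes and all lists were chosen with earlier results of these data known. Probe sets were named from the platform annotation, with symbols updated through Entrez identifiers: 34945 had 1 symbol, 932 several and 9160 none. Per gene the probe set with the highest mean was kept if above 5 in at least 3 arrays. The fit across genes used lmFit and eBayes of limma 3.58.1 in R 4.3.3, with all 12 arrays, 1 mean per group, 8 residual degrees of freedom and Benjamini-Hochberg adjustment over 9120 genes per comparison. The script was tested on simulated data. Named genes were all 10 members and, per list and comparison, up to 4 called genes of smallest p, or the top gene where none was called. Promoters came from RefSeq GRCm38.p6. Scanner files were not analysed here, probe sequences were not checked for strain variants, and the number of arrays limits the precision. Alternatives changed the filter, probe set, centring, floor, variance model, weights, samples fitted, replicate block, covariates and arrays.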

Additional observations from a re-analysis of the deposited data

How the results depend on the processing

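The limma calls of the 10 genes were refitted under each alternative. Of these, 2, the 18S covariate and leaving out both arrays that stand apart, were chosen after seeing the data. No direction of a called difference reversed. For irradiation in Balb/c, members called went from 0 to 1 (Herpud1) with trend and robust variance, and ranged from 0 to 1 with each array left out. In the mean of both strains the 1 call became 0 with no filter, the replicate block, the 3′ minus 5′ covariate, the 18S covariate or both arrays left out, 2 with the mean of all probe sets (Herpud1 and Ddit3), 1 with the second probe set (Ddit3 in place of Herpud1), and 0 to 1 with each array left out. The strain comparison of sham mice went from 0 to 1 with the mean of all probe sets. That of irradiated mice went from 1 to 0 with the compared groups alone, either covariate or both arrays left out. The main fit did not pair arrays by replicate number. Of 18 correlations of deviations between arrays of the same number, 9 were above 0.1 (-0.05 to 0.45). In 20 of 36 comparisons of an array with the 3 arrays of another group, the best match had its own number. Without any link between equal numbers, 1 in 3 would. Whether arrays of the same number share a batch was not tested. With the replicate block 0 members were called in the mean of both strains, where Herpud1 had an adjusted p of 0.055. Counts over all genes moved more: irradiation in Balb/c called 561 genes, 283 with no filter, 104 with the 3′ minus 5′ covariate and 39 with the 18S covariate. In C57BL/6 335 became 155 with no filter and 96 with the compared groups alone, and the mean of both strains went from 1447 to 867 with no filter and 241 with the 18S covariate. Of the refitted member differences 1419 kept their side of the threshold, 20 lost a call and 5 gained one. Pdia4 dropped out under the stricter filter of 7.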
